A study of Homo sapiens with 37 samples.

Results

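The genes described here are 8 genes of heparan sulfate biology, found by symbol among the 57773 Ensembl gene identifiers of the count tables. They are the extracellular sulfatases SULF1 and SULF2, the heparanase HPSE, the glypicans GPC1 and GPC6, and the syndecans SDC1, SDC2 and SDC4. The set was chosen by its measured values in irradiated against control aortic endothelial cells, where SULF1 rose strongly, so the values of that comparison are given as a description, with no test. All 8 genes were found, and all 8 passed the filter on low counts in each of the 5 sets of libraries.

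Heparan sulfate is a sulfated sugar chain carried by core proteins at the cell surface and in the matrix, where it binds fibroblast growth factors, VEGF, chemokines and morphogens. Syndecans are transmembrane core proteins, and glypicans are core proteins held to the membrane by a lipid (GPI) anchor. SULF1 and SULF2 work outside the cell and take sulfate groups off the finished chain, which changes what it binds, and heparanase cuts the chain into fragments. On endothelium these chains are part of the glycocalyx that faces the blood, and around fibroblasts they hold growth factors in the matrix.

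Total RNA of 37 libraries in 17 groups was sequenced after removal of ribosomal RNA, to compare models of senescence, a lasting stop of cell division, with their controls. HAEC, endothelial cells of the human aorta, gave 3 libraries irradiated with 4 Gy and 2 controls, at population doubling level 4 to 6. HUVEC, endothelial cells of the umbilical vein, gave 3 libraries irradiated with 4 Gy and 3 controls, at level 3 to 5. The remaining groups are diploid lung fibroblasts, the strains IMR-90 and WI-38, with 2 libraries each. IMR-90 cells were irradiated with 10 Gy at level 15, or grown to level 52, and both groups share the same 2 proliferating libraries at level 15 as controls. In the first WI-38 set, at level 25, cells got doxorubicin at 2 µg/mL over 24 h or were left as controls. Others received lentivirus with the HRAS mutant G12V or an empty vector, both at a multiplicity of 10 and with puromycin at 1 µg/mL. In the second WI-38 set the doxorubicin experiment was repeated with its own controls, cells were irradiated with 10 Gy beside unirradiated controls, and cells at level 53 to 55 were set beside proliferating cells at level 25. No source used here gives the time between treatment and harvest, or says whether libraries of a group came from separate cultures, so p-values measure the spread between these libraries, which may be technical.

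Libraries held 102293388 to 370996204 counts. Values are CPM, the usual depth-scaled counts, with TMM scaling within a set. Protein-coding genes took 82.0% to 91.1% of counts in the 12 libraries of the second WI-38 set, against 50.7% to 66.9% in the other 25, and mitochondrial genes took 3.21% to 14% against 0.101% to 0.607%, so levels set side by side across these sets differ in what the scaled total holds. Biological coefficients of variation ran from 5.69% for HAEC libraries to 38.1% for the second WI-38 set, with 6.94% for HUVEC, 8.41% for IMR-90 and 16.3% for the first WI-38 set. HRAS read 1966 ± 31.5 CPM in the libraries labelled HRAS and 41.5 ± 7.77 CPM in empty vector libraries (SD, n = 2 each). MKI67, a marker of dividing cells, was higher in irradiated IMR-90, at 29.6 ± 2.28 CPM. It was at 18.6 ± 1.70 CPM in the proliferating IMR-90 controls (n = 2 each), which goes against the labels' names. In late-passage IMR-90 MKI67 averaged 20.04 CPM (17.69 to 22.38 CPM), overlapping these controls (17.42 to 19.82 CPM), and was not lower there either. CDKN1A, another gene listed for growth state, averaged 698.7 CPM in irradiated and 528.9 CPM in late-passage IMR-90, against 198.3 CPM in the controls. LMNB1, also listed for growth state, averaged 25.14 and 18.18 CPM in these groups, against 24.68 CPM in the controls. MKI67 was lower in the treated group of the 7 comparisons outside IMR-90. The 9 endothelial markers with an identifier summed to 1650 to 2140 CPM in the endothelial libraries. In fibroblast groups their sums of 38.1 to 307 CPM came mostly from TEK, other than with HRAS, where EGFL7 averaged 23.9 CPM and TEK 9.93 CPM, with CDH5, the endothelial cadherin, at or below 2.46 CPM in every group's mean. The 10 fibroblast markers summed to 16.9 to 39.4 CPM in endothelial libraries and to 1100 to 15100 CPM in fibroblast libraries.

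Both sulfatases rose when WI-38 cells were treated with doxorubicin or irradiated, and in irradiated HUVEC. SULF1 fell in irradiated IMR-90, in late-passage cells of both fibroblast strains and with HRAS. GPC6 fell in late-passage cells of both strains, in irradiated IMR-90 and with HRAS, and GPC1 and SDC4 rose together in both IMR-90 comparisons. A gene is called here at an adjusted p below 0.05 by edgeR's quasi-likelihood test with Benjamini-Hochberg adjustment over all genes tested. In irradiated HUVEC 4 of the 8 genes were called, 2 higher and 2 lower, where 39.4% of all 27519 genes tested were called, 18.9% higher and 20.4% lower. In irradiated IMR-90 7 were called, 4 higher and 3 lower, beside 49.3% of all genes, and in late-passage IMR-90 5 were called, 2 higher and 3 lower, beside 50.2% (26.7% higher and 23.5% lower). Of all genes, 26.7% were called higher and 22.6% lower after irradiation of IMR-90, so calls in both directions were common.

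In WI-38, doxorubicin in the first experiment gave 3 calls of 8, 2 higher and 1 lower, beside 26.9% of all genes (13.7% higher and 13.3% lower). The repeat gave 2 calls, both higher, beside 5.45% of all genes (3.18% higher and 2.27% lower), and irradiation gave 2, both higher, beside 15% (8.89% higher and 6.10% lower). Late passage gave 6 calls, 2 higher and 4 lower, beside 12.6% of all genes (5.77% higher and 6.83% lower). HRAS gave 7 calls, 2 higher and 5 lower, beside 46.1% (27.2% higher and 18.9% lower). In irradiated HAEC, whose values chose the genes, 4 were higher and 3 lower past the same threshold, beside 40.0% of all genes (20% in each direction), and nothing is read from that count.

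**Figure D1:**
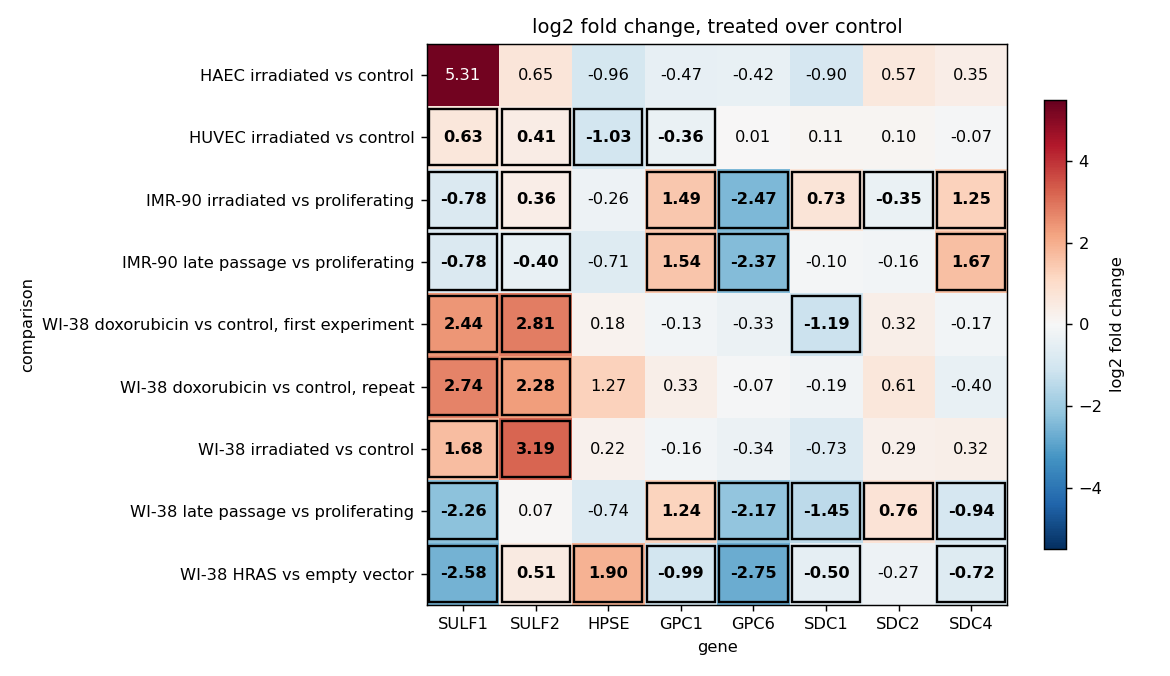
Log2 fold change, treated over control, of the 8 genes (columns) in the 9 comparisons (rows), with the colour from blue (lower) to red (higher). Framed cells passed an adjusted p below 0.05, and the HAEC row is shown without a test. SULF1 and SULF2 stand at 1.68 to 3.19 in the WI-38 doxorubicin and irradiation rows, and GPC6 at -2.17 to -2.75 in the 4 rows where it fell.

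SULF1 was the member that chose this set. It read 40.0, 37.9 and 38.5 CPM in the 3 irradiated HAEC libraries, against 0.908 and 1.08 CPM in the 2 controls, which rested on 138 and 107 counts. The groups lie far apart, with a fitted ratio of 39.7 (log2 5.31 ± 0.08, SE). The next largest rise among the 8 genes in the same cells was 1.57-fold, for SULF2. Fibroblast markers, the other cell type here in which SULF1 is read, summed to 23.6 to 34.8 CPM in irradiated HAEC and 23.2 to 39.4 CPM in control HAEC.

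In HUVEC SULF1 was already high without irradiation. Its level was 110.0, 108 and 105 CPM in irradiated HUVEC and 69.1, 65.9 and 73.9 CPM in control HUVEC. The groups do not overlap, and the rise was 1.55-fold (log2 0.63 ± 0.04, edgeR adjusted p = 3.11e-21). The control level of HUVEC thus lay above the level that irradiated HAEC reached. The difference between the HAEC and HUVEC responses was not tested, because the HAEC values chose the gene.

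In WI-38 fibroblasts SULF1 was low in controls and rose with doxorubicin and with irradiation. With doxorubicin in the first experiment SULF1 read 10.9 and 12.5 CPM, against 2.42 and 1.89 CPM in controls. In the repeat it read 14.1 and 15.1 CPM with doxorubicin, against 1.64 and 2.74 CPM in controls. Every treated library was above every control in both experiments, by 5.41-fold (log2 2.44 ± 0.23, edgeR adjusted p = 6.24e-06) and 6.67-fold (log2 2.74 ± 0.28, edgeR adjusted p = 5.19e-05). After 10 Gy SULF1 was at 9.46 and 7.10 CPM in irradiated WI-38 and 2.38 and 2.77 CPM in their controls, a rise of 3.21-fold (log2 1.68 ± 0.27, edgeR adjusted p = 0.000615).

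In late-passage cells, in irradiated IMR-90 and with HRAS, SULF1 went the other way. Late-passage WI-38 held 0.477 and 0.563 CPM, against 2.62 and 2.36 CPM in proliferating WI-38, a drop to 0.209 of the control level (log2 -2.26 ± 0.28, edgeR adjusted p = 9.24e-05). HRAS libraries held 0.304 and 0.141 CPM, from 44 and 17 counts, against 1.45 and 1.27 CPM with the empty vector (log2 -2.58 ± 0.29, edgeR adjusted p = 1.29e-05). Without HRAS library 1 the fall was larger (log2 -3.26, edgeR adjusted p = 9.27e-06). Neither pair of groups overlaps, and HRAS gave the lowest SULF1 of all 17 groups, 484 times below irradiated HUVEC, the highest. In IMR-90 SULF1 read 8.66 and 9.62 CPM after irradiation and 9.32 and 8.95 CPM at late passage, beside 16.5 and 14.8 CPM in the shared proliferating controls. Both IMR-90 groups fell by 0.78 on the log2 scale (SE 0.09 each, edgeR adjusted p = 4.37e-07 for irradiation and 4.57e-07 for late passage). SULF1 was therefore called in all 8 comparisons tested, 4 higher and 4 lower, and each of these calls was also made under every alternative run.

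SULF2 was the sulfatase with the larger rise in irradiated WI-38. It read 18.7 and 21.1 CPM in irradiated WI-38, against 2.15 and 2.23 CPM in controls, 9.10-fold higher (log2 3.19 ± 0.24, edgeR adjusted p = 9.42e-07). With doxorubicin in the first experiment it read 15.7 and 15.8 CPM, against 2.31 and 2.20 CPM in controls, 6.99-fold higher (log2 2.81 ± 0.15, edgeR adjusted p = 3.34e-08). In the repeat it read 44.0 and 28.1 CPM with doxorubicin and 6.63 and 8.23 CPM in controls, 4.86-fold higher (log2 2.28 ± 0.23, edgeR adjusted p = 5.20e-05). The groups are apart in all 3 experiments, and the 2 treated libraries of the repeat are far from each other. The endothelial marker sum also differed there, at 114 to 149 CPM in irradiated WI-38 against 60.5 to 60.6 CPM in controls, and at 237 to 249 CPM with doxorubicin in the first experiment against 104 to 108 CPM. In the repeat it was 306 to 307 CPM with doxorubicin and 96.1 to 142 CPM in controls. TEK, which is 1 of the 9 markers, averaged 129 CPM in irradiated WI-38, 230 CPM with doxorubicin and 305 CPM in its repeat, while CDH5 averaged at most 0.125 CPM in these treated groups. Mitochondrial genes took 9.71% and 14.02% of counts in irradiated WI-38 and 6.31% and 6.99% in their controls, and the 2 irradiated libraries had the lowest correlation of log2 CPM of all replicate pairs (Pearson r = 0.9465 over genes). The part of these markers and shares in the rise of the sulfatases was not tested.

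In endothelium SULF2 averaged 22.1 to 46.5 CPM over the groups, near the 15.8 to 36.1 CPM of WI-38 after doxorubicin or irradiation. WI-38 with HRAS (4.25 CPM) and at late passage (8.67 CPM) stood lower. Irradiated HUVEC held 29.5, 29.2 and 29.5 CPM and control HUVEC 24.0, 21.1 and 21.3 CPM, a rise of 1.33-fold (log2 0.41 ± 0.05, edgeR adjusted p = 8.32e-11) with no overlap. Irradiated HAEC held 47.5, 45.2 and 46.7 CPM and control HAEC 30.8 and 28.4 CPM, given without a test. In IMR-90, SULF2 was at 7.88 and 7.46 CPM after irradiation and 5.01 and 4.08 CPM at late passage, beside 6.47 and 5.51 CPM in the shared controls. Against these it was called higher with irradiation (log2 0.36 ± 0.12, edgeR adjusted p = 0.0157) and lower at late passage (log2 -0.40 ± 0.12, edgeR adjusted p = 0.00922). Both calls are small and rest on single libraries. With all 37 libraries in 1 fit both were lost too (edgeR adjusted p = 0.0515 for irradiation and 0.0932 for late passage). The irradiation call was lost without irradiated library 1 (log2 0.32, edgeR adjusted p = 0.106) or proliferating library 2 (log2 0.25, edgeR adjusted p = 0.175). The late-passage call was lost without late-passage library 2 (log2 -0.26, edgeR adjusted p = 0.106) or proliferating library 1 (log2 -0.27, edgeR adjusted p = 0.144). Set directly against each other, irradiated IMR-90 had more SULF2 than late-passage IMR-90 (log2 0.75 ± 0.12, edgeR adjusted p = 0.000353), one of 3 genes called in that comparison beside 11.2% of all genes (5.31% higher and 5.92% lower).

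With HRAS, SULF2 read 4.14 and 4.36 CPM, against 2.99 and 2.96 CPM with the empty vector (log2 0.51 ± 0.14, edgeR adjusted p = 0.0101). The groups do not overlap, but the call was lost without doxorubicin library 2 (log2 0.40) and without HRAS library 2 (log2 0.48). It was also lost with the compared groups alone and with all 37 libraries in 1 fit. There log2 was as low as 0.37, with an edgeR adjusted p up to 0.224. In late-passage WI-38 SULF2 read 8.48 and 8.86 CPM, against 8.37 and 8.09 CPM in proliferating WI-38, and was not called (edgeR adjusted p = 0.894). The untreated WI-38 groups differed among themselves: SULF2 averaged 8.23 CPM in the proliferating group and 7.43 CPM in the controls of the doxorubicin repeat, and 2.19 CPM in the irradiation controls of the same set. MKI67 averaged 42.2, 36.2 and 201 CPM in those groups, in the same order.

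The gene start of SULF2 is shown because SULF2 had the largest rise of the 7 genes besides SULF1. The stretch runs from 250 bases before to 50 bases after a transcript start in RefSeq on GRCh38.p14, 5′ to 3′ on the gene's strand, with the letters of the motif CCAAT, searched on both strands, in capitals. RefSeq lists 4 such starts for SULF2, and the one nearest to the gene start in GENCODE 29 is printed.
SULF2 (chr20:47786578-47786877, minus strand): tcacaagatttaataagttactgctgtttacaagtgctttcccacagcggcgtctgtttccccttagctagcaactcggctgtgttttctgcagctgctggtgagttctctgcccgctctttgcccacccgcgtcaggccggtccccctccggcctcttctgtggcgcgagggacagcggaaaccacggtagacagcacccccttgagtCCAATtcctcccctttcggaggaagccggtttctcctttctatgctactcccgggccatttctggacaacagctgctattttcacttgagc
It holds 1 CCAAT, which 34.6% of all 34796 windows of that length hold, and 15 CG pairs, beside a median of 14 over all windows. None of GGGCGG (44.9% of windows), TATAAA (11.6%), TGANTCA (7.73%) or CACGTG (7.20%) occurs in it on either strand. The letters are a description of this window only.

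HPSE, the only enzyme among the 8 that cuts the chain, was an endothelial gene in these libraries. It fell in irradiated HUVEC to 5.99, 6.50 and 5.63 CPM, against 11.5, 11.9 and 13.4 CPM in control HUVEC, with no overlap and a ratio of 0.491 (log2 -1.03 ± 0.07, edgeR adjusted p = 8.16e-19). Irradiated HAEC held 15.2, 13.3 and 13.8 CPM and control HAEC 27.1 and 27.6 CPM, again without a test. In bulk RNA such as this, fewer cells of a kind and less RNA per cell cannot be told apart.

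In fibroblasts HPSE stayed between 0.135 and 0.505 CPM in every group's mean, from 20 to 148 counts per library. It was called only with HRAS, at 0.463 and 0.548 CPM against 0.114 and 0.156 CPM with the empty vector, a ratio of 3.74 (log2 1.90 ± 0.39, edgeR adjusted p = 0.00153). The libraries do not overlap, though the higher level is far below that of any endothelial group. Untreated WI-38 controls of that set held 0.327 and 0.335 CPM, between the empty vector and HRAS libraries. In the doxorubicin repeat HPSE averaged 0.355 CPM against 0.147 CPM in controls, above them in each library (log2 1.27 ± 0.70, edgeR adjusted p = 0.348). That difference passed only with all 37 libraries fitted together (edgeR adjusted p = 0.0152). In irradiated WI-38 the 2 libraries disagreed, at 0.0809 and 0.439 CPM, beside 0.246 and 0.201 CPM in controls, and no difference was detectable at this spread (edgeR adjusted p = 0.865).

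**Figure D2:**
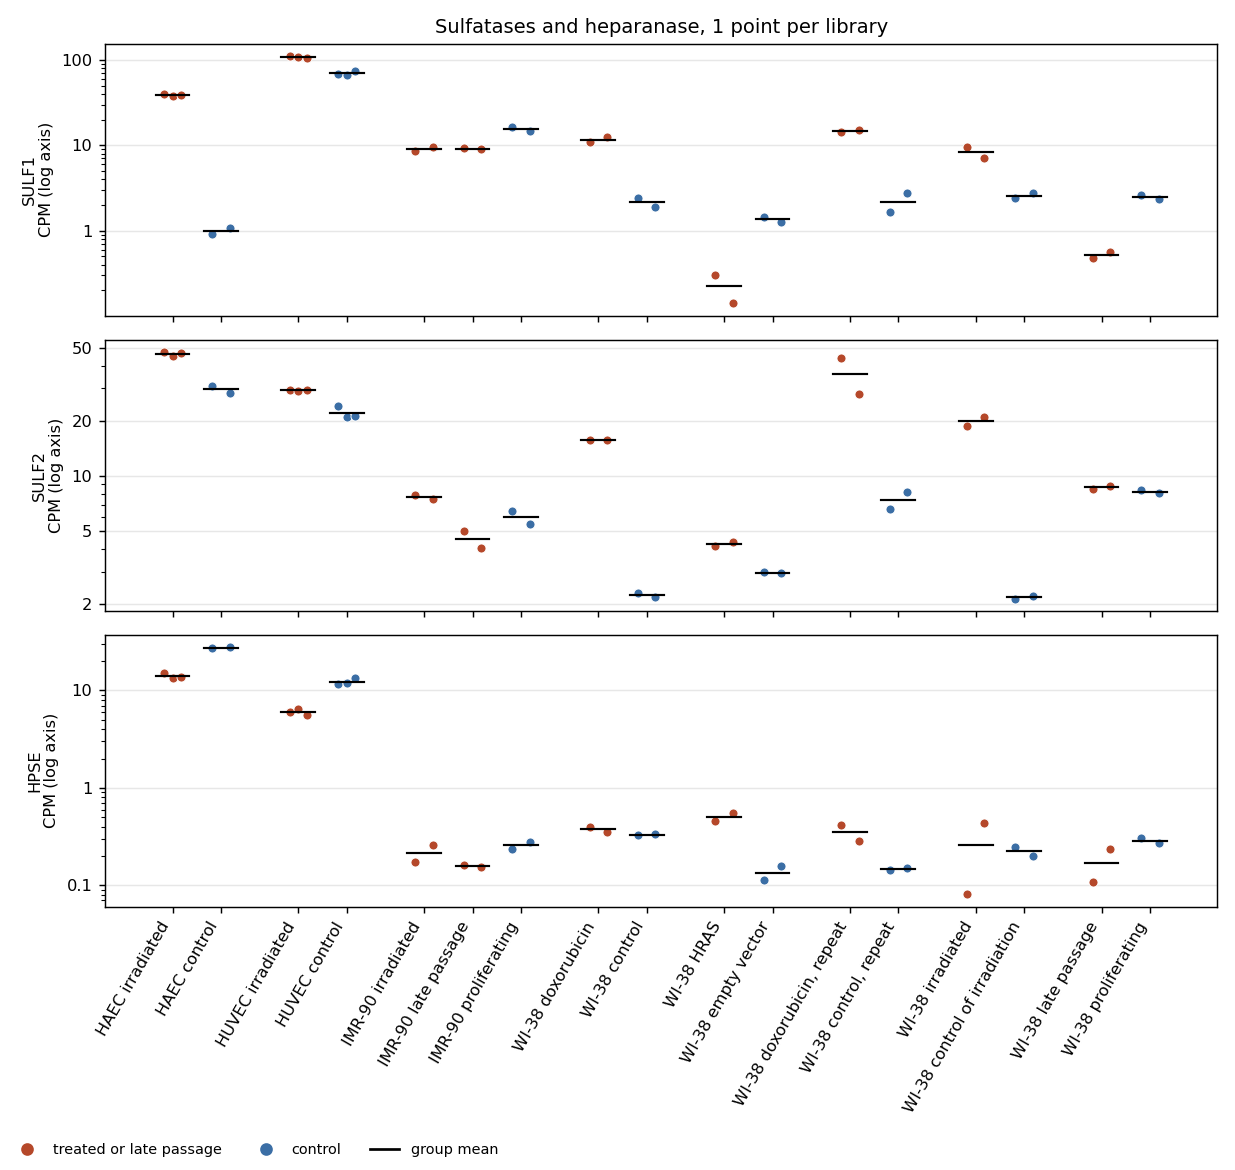
CPM of SULF1, SULF2 and HPSE on log axes, 1 point per library, with treated or late-passage groups in red, controls in blue and a bar at each group's mean. SULF1 runs from 0.223 CPM with HRAS to 108 CPM in irradiated HUVEC, and HPSE is at 6.04 CPM or more in the endothelial groups and at 0.505 CPM or less in the fibroblast groups.

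Of the glypicans among the 8 genes, GPC6 had the larger fall in fibroblasts. It read 17.4 and 17.8 CPM in irradiated IMR-90 and 16.8 and 20.9 CPM in late-passage IMR-90, beside 98.5 and 96.9 CPM in the shared proliferating controls. The treated means are 0.180 and 0.193 of the control mean, with log2 -2.47 ± 0.08 for irradiation (edgeR adjusted p = 2.84e-12) and -2.37 ± 0.08 for late passage (edgeR adjusted p = 4.14e-12). Late-passage WI-38 held 16.1 and 12.8 CPM, against 68.4 and 61.1 CPM in proliferating WI-38 (log2 -2.17 ± 0.25, edgeR adjusted p = 4.48e-05). HRAS gave 3.90 and 2.96 CPM, against 25.8 and 20.4 CPM with the empty vector (log2 -2.75 ± 0.17, edgeR adjusted p = 8.73e-08). No group overlapped its control in these 4 comparisons, and the 4 calls were made under every alternative run.

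Fibroblast markers as a group were lower in some of the same libraries. Their sum was 3260 to 3330 CPM in irradiated IMR-90 and 4890 to 5260 CPM in late-passage IMR-90, beside 14300 to 15100 CPM in the controls, and all 10 markers averaged at least 1 CPM in each group. It was 1100 to 1210 CPM with HRAS and 6130 to 7150 CPM with the empty vector, and 3750 to 3950 CPM in late-passage WI-38 against 5570 to 5660 CPM in proliferating WI-38. Their part in the fall of GPC6 was not tested.

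After doxorubicin and irradiation in WI-38 GPC6 was not called. It read 26.8 and 24.8 CPM with doxorubicin in the first experiment, against 32.8 and 32.0 CPM in controls (log2 -0.33 ± 0.16, edgeR adjusted p = 0.150). That difference passed without empty vector library 1 (log2 -0.33, edgeR adjusted p = 0.0276), without empty vector library 2 (log2 -0.36, edgeR adjusted p = 0.0131) and with the compared groups fitted alone (log2 -0.32, edgeR adjusted p = 0.000229). In the repeat it read 47.3 and 48.98 CPM with doxorubicin and 38.3 and 62.8 CPM in controls, which overlap. Irradiated WI-38 held 26.4 and 18.4 CPM and their controls 28.9 and 27.9 CPM (log2 -0.34 ± 0.24, edgeR adjusted p = 0.365). In endothelium GPC6 was near the limit of counting, at 0.0539 to 0.224 CPM from 8 to 34 counts per library, and was not called in HUVEC.

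GPC1, the other glypican, rose in IMR-90, where GPC6 fell. It read 148 and 162 CPM after irradiation and 173 and 149 CPM at late passage, beside 55.5 and 54.9 CPM in the shared controls. These are 2.80-fold (log2 1.49 ± 0.07, edgeR adjusted p = 1.23e-11) and 2.91-fold (log2 1.54 ± 0.07, edgeR adjusted p = 7.19e-12) higher, with no overlap. Late-passage WI-38 held 63.5 and 114 CPM, against 38.2 and 37.3 CPM in proliferating WI-38 (log2 1.24 ± 0.31, edgeR adjusted p = 0.0159). This rise rests on late-passage library 2, without which it was 0.75 (edgeR adjusted p = 0.200), and it was also lost without proliferating library 1 (log2 1.3, edgeR adjusted p = 0.0706) or 2 (log2 1.23, edgeR adjusted p = 0.0860). The unirradiated WI-38 controls of the same set, at 96.5 and 117 CPM, overlapped the late-passage cells.

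GPC1 was lower with HRAS than with the empty vector, and it fell in HUVEC. It read 148 and 171 CPM with HRAS, against 270 and 365 CPM with the empty vector, the group with the most GPC1 of all 17 (log2 -0.99 ± 0.15, edgeR adjusted p = 0.000165). Irradiated HUVEC held 18.99, 19.8 and 21.04 CPM and control HUVEC 26.3, 24.6 and 25.7 CPM (log2 -0.36 ± 0.05, edgeR adjusted p = 8.82e-09). Neither pair of groups overlaps. The untreated WI-38 controls of the first set, at 150 and 142 CPM, overlapped the HRAS libraries. The HUVEC call was lost when all 37 libraries were fitted together (log2 -0.36, edgeR adjusted p = 0.254). Irradiated HAEC held 37.6, 34.7 and 36.7 CPM and control HAEC 50.7 and 49.6 CPM, without a test. Doxorubicin left GPC1 uncalled in the first experiment (log2 -0.13 ± 0.15) and the repeat (log2 0.33 ± 0.30), as did irradiation of WI-38 (log2 -0.16 ± 0.30).

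**Figure D3:**
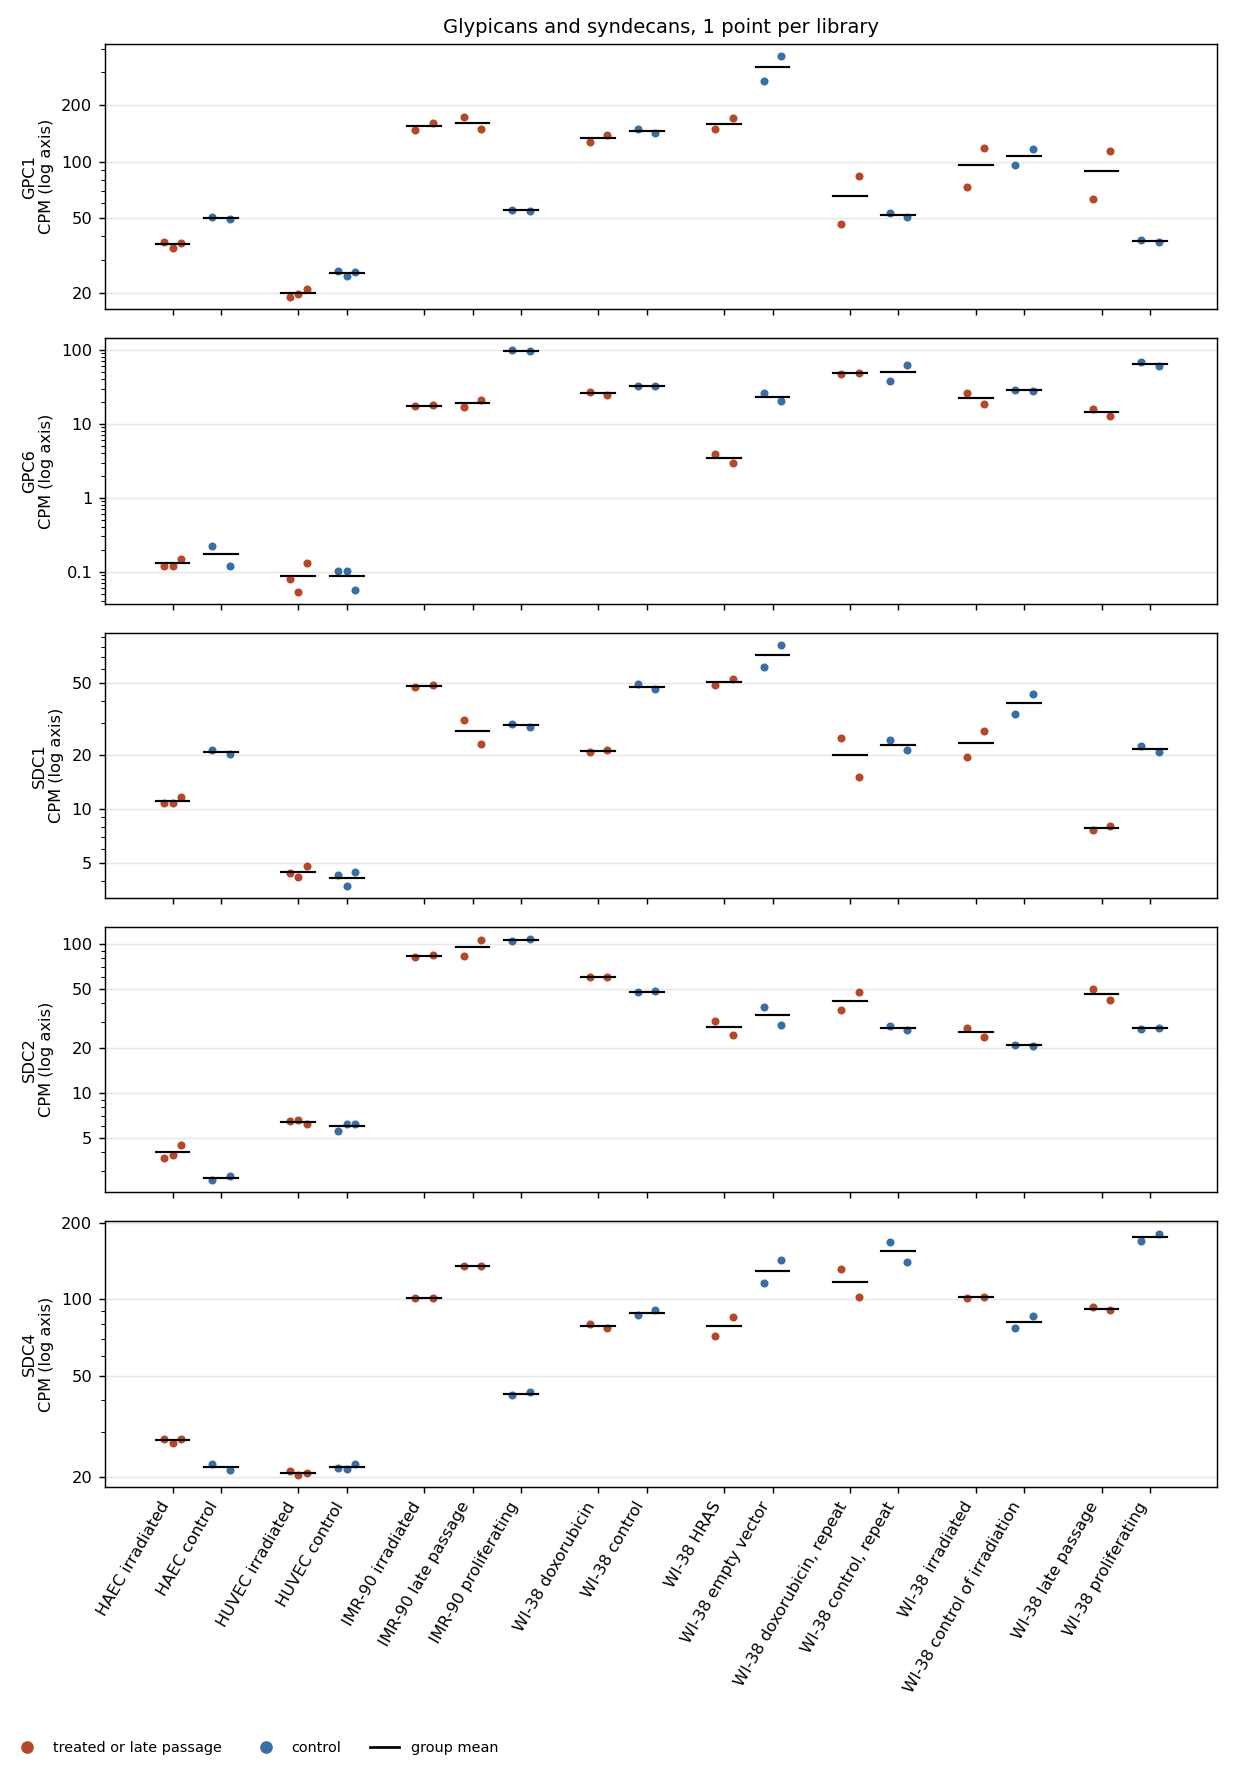
CPM of the glypicans GPC1 and GPC6 and the syndecans SDC1, SDC2 and SDC4 on log axes, 1 point per library, with treated or late-passage groups in red, controls in blue and a bar at each group's mean. GPC6 averages 3.43 to 97.7 CPM in fibroblast groups and 0.0871 to 0.172 CPM in endothelial groups, and GPC1 and SDC4 stand above their IMR-90 controls while GPC6 stands below them.

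Of the syndecans, SDC4, which is found in focal adhesions, rose in IMR-90 and was lower in late-passage than in proliferating WI-38. It read 101 and 101 CPM after irradiation of IMR-90 and 135 and 135 CPM at late passage, beside 41.9 and 43.0 CPM in the shared controls. The rises were 2.38-fold (log2 1.25 ± 0.05, edgeR adjusted p = 9.90e-13) and 3.18-fold (log2 1.67 ± 0.05, edgeR adjusted p = 1.97e-14). Late-passage WI-38 held 92.9 and 90.7 CPM, against 170 and 182 CPM in proliferating WI-38, a ratio of 0.522 (log2 -0.94 ± 0.18, edgeR adjusted p = 0.00331). The groups are apart in all 3 comparisons. The unirradiated WI-38 controls of the same set, at 77.2 and 86.1 CPM, lay below the late-passage cells. The WI-38 call narrowly missed the threshold without proliferating library 2 (log2 -0.88, edgeR adjusted p = 0.0505). With HRAS SDC4 was at 71.3 and 85.5 CPM, against 116 and 143 CPM with the empty vector (log2 -0.72 ± 0.14, edgeR adjusted p = 0.000961), again without overlap. Untreated WI-38 controls of that set held 86.3 and 90.4 CPM, just above the HRAS libraries and below the empty vector libraries.

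SDC4 was not called in the other WI-38 experiments. It read 80.1 and 77.4 CPM with doxorubicin in the first experiment, against 86.3 and 90.4 CPM in controls, and 132 and 102 CPM in the repeat, against 169 and 140 CPM. The first difference passed with only the groups compared (log2 -0.16, edgeR adjusted p = 0.0175), and the second with all 37 libraries fitted together (log2 -0.41, edgeR adjusted p = 0.0199). Irradiated WI-38 held 101 and 102 CPM and their controls 77.2 and 86.1 CPM (log2 0.32 ± 0.18, edgeR adjusted p = 0.263). In IMR-90 the late-passage level was above the irradiated one, with a log2 difference of -0.415 ± 0.052 for irradiated minus late passage (edgeR adjusted p = 4.19e-05), a call lost when all 37 libraries were fitted together (log2 -0.42, edgeR adjusted p = 0.148).

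SDC4 varied little in endothelium. It read 20.96, 20.3 and 20.7 CPM in irradiated HUVEC and 21.6, 21.4 and 22.3 CPM in control HUVEC, lower in each treated library but not called (edgeR adjusted p = 0.235). Irradiated HAEC held 28.2, 27.1 and 28.1 CPM and control HAEC 22.5 and 21.2 CPM, a difference that goes the other way and is given without a test.

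SDC1, the syndecan typical of epithelium, fell with doxorubicin in the first WI-38 experiment to 20.8 and 21.2 CPM, against 49.4 and 46.4 CPM in controls (log2 -1.19 ± 0.15, edgeR adjusted p = 5.94e-05). In the repeat the groups overlapped, at 24.7 and 15.1 CPM with doxorubicin and 24.3 and 21.3 CPM in controls (log2 -0.19 ± 0.24, edgeR adjusted p = 0.742). The controls of the repeat already held less SDC1 than those of the first experiment. Late-passage WI-38 held 7.69 and 8.09 CPM, against 22.3 and 20.7 CPM in proliferating WI-38 (log2 -1.45 ± 0.25, edgeR adjusted p = 0.00128), with no overlap. Irradiated WI-38 held 19.4 and 27.2 CPM and their controls 33.9 and 43.7 CPM, which do not overlap, but the difference was not called (log2 -0.73 ± 0.24, edgeR adjusted p = 0.0574). It passed with DESeq2 size factors (log2 -0.80, edgeR adjusted p = 0.0390), with no filter on low counts (log2 -0.72, edgeR adjusted p = 0.0190) and without irradiated library 2 (log2 -1.0, edgeR adjusted p = 0.0291). It also passed without either library of the doxorubicin repeat (log2 -0.73, edgeR adjusted p = 0.0335 and 0.0329) or either late-passage library (log2 -0.75 and -0.73, edgeR adjusted p = 0.0403 and 0.0482), which share the estimate of the spread. Summed epithelial markers were 15.1 to 16.6 CPM with doxorubicin in the first experiment and 29 to 31.7 CPM in controls, and their part in the fall of SDC1 was not tested.

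In IMR-90 SDC1 separated the 2 models. It read 47.7 and 49.01 CPM after irradiation and 31.4 and 22.9 CPM at late passage, beside 29.9 and 28.5 CPM in the shared controls. Irradiated cells were above the controls (log2 0.73 ± 0.14, edgeR adjusted p = 0.00684) and above late-passage cells (log2 0.83 ± 0.14, edgeR adjusted p = 0.0193), without overlap. Both calls were lost without some single libraries. The call against the controls was lost without proliferating library 1 (log2 0.77, edgeR adjusted p = 0.0811) or 2 (log2 0.70, edgeR adjusted p = 0.0918). The call against late passage was lost without proliferating library 1 (log2 0.83, edgeR adjusted p = 0.0999) or 2 (log2 0.83, edgeR adjusted p = 0.0940), and without irradiated library 1 (log2 0.85, edgeR adjusted p = 0.0732) or 2 (log2 0.81, edgeR adjusted p = 0.0916). It was lost too with only the groups compared (log2 0.83, edgeR adjusted p = 0.0569). Summed epithelial markers were 65.1 to 68.4 CPM after irradiation and 60.8 to 72.8 CPM at late passage, beside 13 to 13.6 CPM in the controls. Of these 6 markers ESRP1 was at 0 in all 3 groups and CDH1 in the controls, and their part in the rise of SDC1 was not tested. Late-passage cells themselves overlapped the controls (log2 -0.10 ± 0.14), with library 2 below both, and were called lower when library 1 was left out (log2 -0.34, edgeR adjusted p = 0.000185).

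With HRAS SDC1 read 48.9 and 52.7 CPM, against 62.0 and 81.9 CPM with the empty vector (log2 -0.50 ± 0.14, edgeR adjusted p = 0.0123). That call was lost without HRAS library 1 (log2 -0.44, edgeR adjusted p = 0.0935). The untreated controls of the first doxorubicin experiment, at 49.4 and 46.4 CPM, overlapped the HRAS libraries. In HUVEC SDC1 was low and overlapping, at 4.45, 4.22 and 4.82 CPM in irradiated cells and 4.29, 3.74 and 4.45 CPM in controls. Irradiated HAEC held 10.8, 10.9 and 11.8 CPM and control HAEC 21.4 and 20.4 CPM, without a test.

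SDC2, the syndecan of mesenchymal cells, had log2 fold changes between -0.35 and 0.76 in fibroblasts, the narrowest range of the 8 genes. In late-passage WI-38 it read 49.5 and 42.2 CPM, against 27.0 and 27.1 CPM in proliferating WI-38 (log2 0.76 ± 0.19, edgeR adjusted p = 0.0153), with no overlap. The call was lost without late-passage library 1 (log2 0.68, edgeR adjusted p = 0.0675), proliferating library 1 (log2 0.79, edgeR adjusted p = 0.124) or proliferating library 2 (log2 0.77, edgeR adjusted p = 0.139). In IMR-90 it read 82.2 and 84.7 CPM after irradiation and 83.0 and 107 CPM at late passage, beside 105 and 108 CPM in the shared controls. The lower level after irradiation was called (log2 -0.35 ± 0.10, edgeR adjusted p = 0.0225), but not once any 1 of the 4 libraries was left out (log2 -0.37 to -0.32, edgeR adjusted p = 0.0512 to 0.201). Late passage was not called (log2 -0.16 ± 0.10, edgeR adjusted p = 0.235), though it was without late-passage library 2 (log2 -0.36, edgeR adjusted p = 1.55e-05). With doxorubicin SDC2 was above controls in every library, at 59.95 and 59.5 CPM against 47.3 and 48.4 CPM and, in the repeat, 35.8 and 47.5 CPM against 28.1 and 26.4 CPM, and neither difference was called (edgeR adjusted p = 0.150 and 0.0776). The first passed with only the groups compared (edgeR adjusted p = 3.69e-05) and without empty vector library 1 (log2 0.32) or 2 (log2 0.29). The second passed by DESeq2's Wald test (log2 0.62, adjusted p = 0.0186) and with all 37 libraries fitted together (edgeR adjusted p = 0.00219). Irradiated WI-38 held 27.2 and 23.8 CPM and their controls 20.9 and 20.8 CPM (log2 0.29 ± 0.19, edgeR adjusted p = 0.325). HRAS libraries held 30.6 and 24.5 CPM and empty vector libraries 37.9 and 28.7 CPM, which overlap (log2 -0.27 ± 0.16, edgeR adjusted p = 0.168), and the difference passed only without empty vector library 2 (log2 -0.56, edgeR adjusted p = 0.000698) or with all 37 libraries fitted together (log2 -0.41, edgeR adjusted p = 0.0193). In endothelium SDC2 was low, at 6.52, 6.57 and 6.21 CPM in irradiated HUVEC and 5.58, 6.22 and 6.20 CPM in control HUVEC, and at 3.70, 3.86 and 4.45 CPM in irradiated HAEC and 2.60 and 2.80 CPM in control HAEC.

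Starts of 3 core protein genes are shown because GPC1 and SDC4 rose and GPC6 fell in both IMR-90 groups. They are the RefSeq windows on GRCh38.p14 of the same length, 5′ to 3′ on each gene's strand, with 1 start listed per gene. Capitals mark GGGCGG or its complement CCGCCC in GPC1 and SDC4, with matches that overlap or touch run together, and TATAAA in GPC6.
GPC1 (chr2:240435413-240435712, plus strand): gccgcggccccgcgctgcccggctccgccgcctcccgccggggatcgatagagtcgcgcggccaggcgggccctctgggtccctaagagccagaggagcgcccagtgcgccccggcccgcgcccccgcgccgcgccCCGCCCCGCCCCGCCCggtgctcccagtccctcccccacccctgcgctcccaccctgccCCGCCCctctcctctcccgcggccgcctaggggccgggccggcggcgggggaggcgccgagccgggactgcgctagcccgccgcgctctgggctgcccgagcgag
SDC4 (chr20:45348375-45348674, minus strand): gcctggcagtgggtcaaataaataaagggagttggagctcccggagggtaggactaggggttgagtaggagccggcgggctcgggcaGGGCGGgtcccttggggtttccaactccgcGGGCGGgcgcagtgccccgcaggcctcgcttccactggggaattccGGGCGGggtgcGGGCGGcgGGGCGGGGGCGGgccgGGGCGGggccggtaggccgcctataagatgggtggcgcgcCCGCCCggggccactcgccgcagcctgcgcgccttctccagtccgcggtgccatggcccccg
GPC6 (chr13:93226557-93226856, plus strand): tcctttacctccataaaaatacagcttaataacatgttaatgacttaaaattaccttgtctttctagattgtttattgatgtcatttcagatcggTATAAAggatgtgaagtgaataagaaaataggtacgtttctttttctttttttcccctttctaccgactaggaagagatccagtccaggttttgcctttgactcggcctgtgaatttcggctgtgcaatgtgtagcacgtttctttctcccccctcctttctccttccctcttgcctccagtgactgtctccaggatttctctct
GGGCGG, in either direction, occurs 4 times in the GPC1 window, 8 times in the SDC4 window and not in the GPC6 window, and it is present in 44.9% of all 34796 windows. CG pairs number 45 in GPC1, 33 in SDC4 and 6 in GPC6, beside quartiles of 4 and 28 over all windows. TATAAA occurs once in GPC6, starting 155 bases before the listed start, and in 11.6% of all windows. On either strand, the 3 windows hold no match to TGANTCA, none to the E-box letters CACGTG and none to the letters CCAAT. A match is a description of letters and not a measured site. Of the 8 genes 6 had a window in the table used.

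Whether the responses differed between models was tested for 4 pairs, with each response taken against its own control. The HRAS and doxorubicin responses of the first WI-38 set differed in 7 of 8 genes, beside 35.7% of all genes (21.7% higher and 14% lower). SULF1 had the largest difference, -5.02 ± 0.36 on the log2 scale (HRAS minus doxorubicin, edgeR adjusted p = 7.83e-07), and GPC6 (-2.42 ± 0.23, edgeR adjusted p = 7.33e-06), SULF2 (-2.29 ± 0.20, edgeR adjusted p = 3.67e-06) and GPC1 (-0.86 ± 0.21, edgeR adjusted p = 0.00691) were also lower with HRAS. These 4 held without any 1 library. HPSE (1.72 ± 0.53), SDC1 (0.69 ± 0.20) and SDC4 (-0.56 ± 0.20) were called too (edgeR adjusted p = 0.0231, 0.0183 and 0.0414), and each was lost without some single libraries. HPSE lost its call without doxorubicin library 1 or 2, doxorubicin control 1 or 2, empty vector library 1 or HRAS library 2 (log2 1.52 to 1.83, edgeR adjusted p = 0.0544 to 0.112). SDC1 lost it without doxorubicin library 1 or 2, doxorubicin control 1 or HRAS library 2 (log2 0.62 to 0.68, edgeR adjusted p = 0.0579 to 0.119). SDC4 lost it without doxorubicin library 1 or 2, doxorubicin control 1 or 2 or HRAS library 1 (log2 -0.67 to -0.42, edgeR adjusted p = 0.0771 to 0.189). Without HRAS library 1 the SULF1 difference was -5.69 (edgeR adjusted p = 3.83e-07). SDC2 missed the threshold (-0.59 ± 0.22, edgeR adjusted p = 0.0506) and passed it without empty vector library 2 (log2 -0.85, edgeR adjusted p = 0.000165) or HRAS library 1 (log2 -0.75, edgeR adjusted p = 0.0359). It also passed with DESeq2 size factors (log2 -0.61, edgeR adjusted p = 0.0456), by DESeq2's Wald test (log2 -0.61, adjusted p = 0.0371), with no filter (log2 -0.57, edgeR adjusted p = 0.0231) and with all 37 libraries fitted together (log2 -0.70, edgeR adjusted p = 0.00713). The first and repeat doxorubicin responses differed in 0 of 8 genes by edgeR, beside 4.40% of all genes (2.57% higher and 1.83% lower), with 1 gene, SDC1, at an unadjusted p below 0.05 (log2 1.02 ± 0.31, edgeR adjusted p = 0.0677) and called by DESeq2's Wald test (log2 1.00, adjusted p = 0.0313). Without doxorubicin repeat library 2 edgeR called it as well (log2 1.34, edgeR adjusted p = 0.0106).

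The radiation responses of WI-38 and IMR-90 differed in 6 of 8 genes, beside 19.9% of all genes (8.82% higher and 11.1% lower). The median difference of all genes was -0.20 there, so values are to be read against that. SULF2 (2.76 ± 0.29, edgeR adjusted p = 9.95e-07), SULF1 (2.39 ± 0.32, edgeR adjusted p = 1.55e-05) and GPC6 (2.06 ± 0.30, edgeR adjusted p = 5.06e-05) were higher in the WI-38 response. GPC1 (-1.72 ± 0.38, edgeR adjusted p = 0.00269), SDC1 (-1.54 ± 0.31, edgeR adjusted p = 0.00127) and SDC4 (-1.01 ± 0.21, edgeR adjusted p = 0.00195) were lower in it. The late-passage responses differed in 4 of 8 genes, beside 11.9% of all genes (4.58% higher and 7.27% lower). SDC4 (-2.62 ± 0.22, edgeR adjusted p = 1.24e-07), SULF1 (-1.50 ± 0.32, edgeR adjusted p = 0.00347) and SDC1 (-1.37 ± 0.31, edgeR adjusted p = 0.00579) were lower in the WI-38 response, and SDC2 was higher (0.90 ± 0.23, edgeR adjusted p = 0.0134). The SDC1 and SDC2 differences were lost without late-passage IMR-90 library 1 (log2 -1.09 and 0.76, edgeR adjusted p = 0.0565 and 0.0948). Strain and library set are the same split in these tests and cannot be told apart. The late-passage fall of GPC6 (0.18 ± 0.30) and rise of GPC1 (-0.32 ± 0.38) did not differ detectably between the strains.

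**Figure D4:**
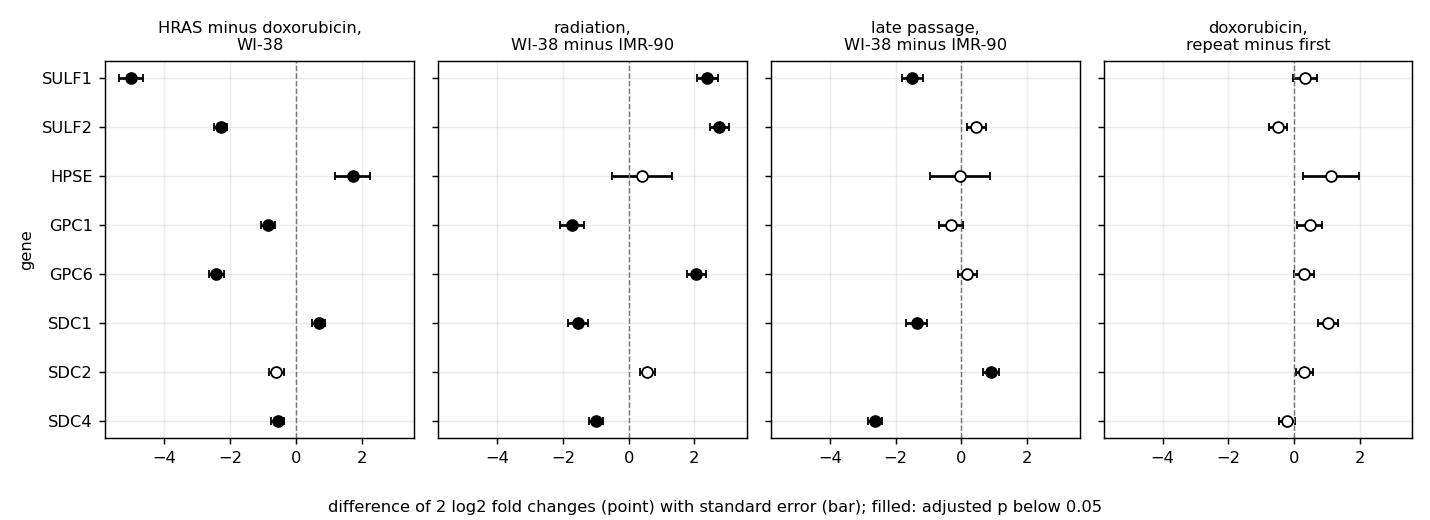
Difference of 2 log2 fold changes (x axis) of each gene (y axis) for the 4 pairs of responses tested, with standard errors as bars and filled points at an adjusted p below 0.05. SULF1 stands at -5.02 for HRAS minus doxorubicin and at 2.39 for radiation in WI-38 minus IMR-90, and all points of doxorubicin repeat minus first are open.

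The other genes of the pathway were taken from 5 lists made with earlier results of these data known. Of 8 other core proteins, GPC4, a glypican, was called higher in all 3 WI-38 damage experiments, at 7.58 against 1.56 CPM with doxorubicin (log2 2.28 ± 0.23, edgeR adjusted p = 1.38e-05), 5.36 against 0.880 CPM in the repeat (log2 2.61 ± 0.36, edgeR adjusted p = 0.000595) and 3.56 against 0.292 CPM after irradiation (log2 3.61 ± 0.38, edgeR adjusted p = 1.48e-05). With HRAS it fell, to 0.365 CPM against 1.52 CPM with the empty vector (log2 -2.08 ± 0.27, edgeR adjusted p = 4.60e-05). The matrix proteoglycans agrin (AGRN) and perlecan (HSPG2) were called higher in irradiated IMR-90 (log2 0.79 and 0.89) and late-passage IMR-90 (log2 1.29 and 1.70). In IMR-90 4 of 7 measured core proteins were higher and 2 lower in each comparison, beside a median log2 fold change of 0.58 after irradiation and 1.02 at late passage and -0.02 and -0.04 over all genes, of which 49.3% and 50.2% were called. HRAS gave 0 higher and 5 lower of 8, with a median of -1.94 beside 0.07 over all genes, of which 46.1% were called (18.9% lower). GPC5 fell in IMR-90 to 0.204 CPM after irradiation and 0.0406 CPM at late passage, beside 6.83 CPM in the shared controls.

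Among 12 genes of the linker and of precursor supply, 9 were higher and 2 lower in irradiated IMR-90 and 10 higher and 2 lower in late-passage IMR-90, with medians of 0.57 and 0.66, where 26.7% of all genes were called higher in each comparison. HRAS gave 9 higher and 0 lower, with a median of 0.62, where 27.2% of all genes were called higher. XYLT1, which starts the linker on the core protein, rose in IMR-90 to 33.4 CPM after irradiation and 41.8 CPM at late passage, beside 10.4 CPM in the controls. In WI-38 it fell, to 9.17 CPM with doxorubicin against 32.9 CPM (log2 -1.84 ± 0.15, edgeR adjusted p = 1.31e-06), 15.9 CPM in the repeat against 54.1 CPM (log2 -1.77 ± 0.18, edgeR adjusted p = 5.19e-05), 17.9 CPM after irradiation against 42.0 CPM (log2 -1.23 ± 0.18, edgeR adjusted p = 0.000258) and 24.8 CPM at late passage against 65.6 CPM (log2 -1.41 ± 0.18, edgeR adjusted p = 0.000105).

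Among the polymerases and modifying enzymes, EXT1, which lengthens the chain, was called higher in 4 WI-38 comparisons. It averaged 480 CPM with doxorubicin against 208 CPM (log2 1.21 ± 0.12, edgeR adjusted p = 1.04e-05), 1270 CPM in the repeat against 372 CPM (log2 1.77 ± 0.20, edgeR adjusted p = 0.000150), 1367 CPM after irradiation against 506 CPM (log2 1.43 ± 0.20, edgeR adjusted p = 0.000225) and 935 CPM at late passage against 443 CPM (log2 1.08 ± 0.20, edgeR adjusted p = 0.00238). The fewest called in this list were 2 higher and 0 lower of 17 in the doxorubicin repeat, where 5.45% of all genes were called. The most were 9 higher and 2 lower of 16 with HRAS (46.1% of all genes) and 6 higher and 5 lower of 15 in irradiated IMR-90 (49.3%). HS6ST1, which adds the kind of sulfate that the sulfatases take off, fell in irradiated IMR-90 (log2 -0.98 ± 0.07, edgeR adjusted p = 1.72e-09), late-passage IMR-90 (log2 -0.75 ± 0.07, edgeR adjusted p = 5.06e-08) and with HRAS (log2 -1.59 ± 0.14, edgeR adjusted p = 1.95e-06).

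The 8 lysosomal enzymes that break the chain down were mostly higher where they were called. Irradiated WI-38 had 7 higher and 0 lower, with a median of 0.95 beside -0.06 over all genes, of which 15% were called (8.89% higher). Doxorubicin gave 6 higher and 1 lower in the first experiment, with a median of 0.67 beside 26.9% of all genes called. In the repeat 0 of 8 were called by edgeR, with 0 at an unadjusted p below 0.05 (lowest 0.0708), and 0 by DESeq2's Wald test, with a median of 0.21 beside 5.45% of all genes called. In HUVEC 4 were higher and 0 lower, beside 18.9% of all genes called higher and 20.4% lower. Of 10 FGF ligands and receptors, which bind the chain, FGF2 rose with HRAS to 365 CPM against 37.6 CPM (log2 3.28 ± 0.24, edgeR adjusted p = 2.99e-07). FGF1 rose in IMR-90 to 20.6 CPM after irradiation and 19.1 CPM at late passage, beside 1.13 CPM in the controls, and fell in irradiated WI-38 to 11.1 CPM against 41.8 CPM (log2 -1.91 ± 0.20, edgeR adjusted p = 1.82e-05).

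**Figure D5:**
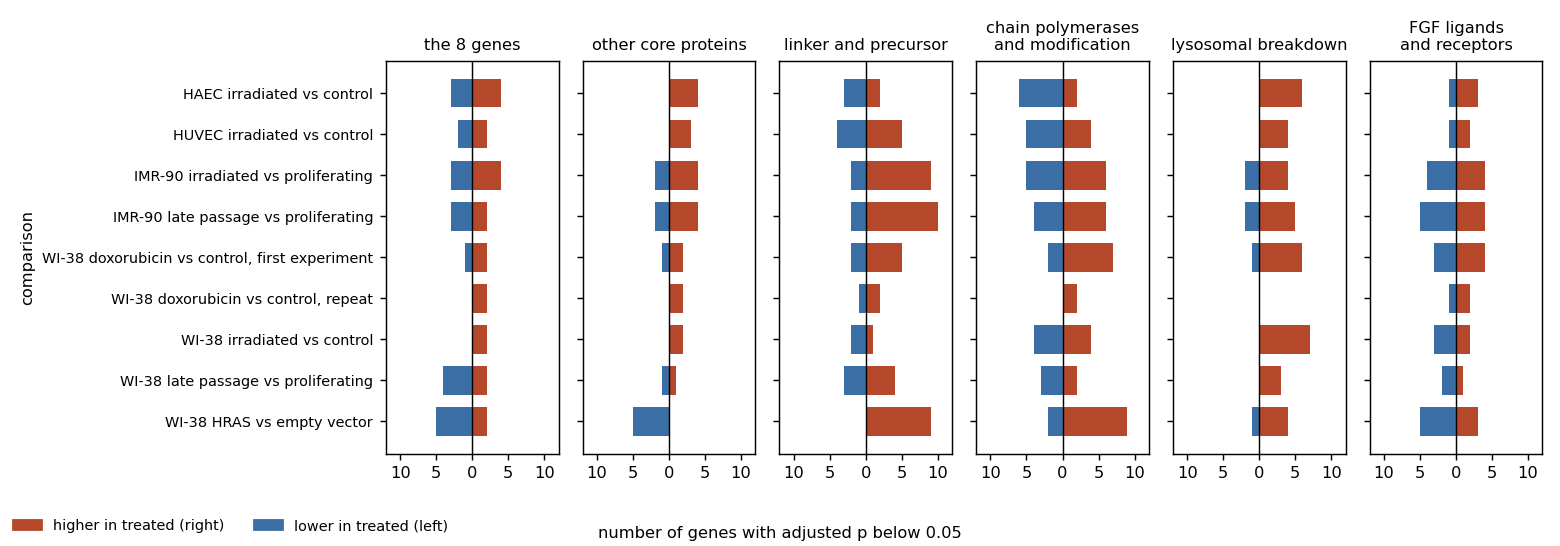
Number of genes called higher (red, right) and lower (blue, left) in the treated group, for the 8 genes and 5 lists of the pathway (panels) in the 9 comparisons (rows), at an adjusted p below 0.05. In the panel of the 8 genes the HAEC row is a description only, because those values chose the genes. Lysosomal enzymes reach 7 higher and 0 lower in irradiated WI-38, and linker and precursor genes 10 higher and 2 lower in late-passage IMR-90.

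The order of group means over the 17 groups differed from gene to gene. SULF1 was highest in irradiated HUVEC (108 CPM), control HUVEC (69.6 CPM) and irradiated HAEC (38.8 CPM), each above the next without overlap, and then in proliferating IMR-90 (15.7 CPM), which overlapped the WI-38 doxorubicin repeat (14.6 CPM). SULF2 was highest in irradiated HAEC (46.5 CPM), followed by the WI-38 doxorubicin repeat (36.1 CPM), control HAEC (29.6 CPM) and irradiated HUVEC (29.4 CPM), the last 3 overlapping in turn. HPSE was highest in control HAEC (27.4 CPM), and below irradiated HUVEC (6.04 CPM) all 13 fibroblast groups followed. GPC6 spanned the widest range, 1120 times between proliferating IMR-90 (97.7 CPM) and control HUVEC (0.0871 CPM). SDC2 was highest in the 3 IMR-90 groups (83.4 to 106 CPM) and lowest in the 4 endothelial groups (2.70 to 6.44 CPM). SDC1 ran from 71.9 CPM with the empty vector to 4.16 CPM in control HUVEC, and SDC4 from 176 CPM in proliferating WI-38 to 20.7 CPM in irradiated HUVEC. Some of this order depends on the scaling. Scaled to protein-coding counts, the SDC4 level was highest with the empty vector (261.6), then in late-passage IMR-90 (211.1) and proliferating WI-38 (187.3). On that scale irradiated HUVEC (46.42) stood above the WI-38 doxorubicin repeat (42.87) for SULF2.

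Per kilobase of exon, so that genes can be set against each other, SDC4 was the highest of the 8 genes in 15 of the 17 groups. SDC2 led in proliferating IMR-90, at 23.4 CPM per kilobase against 16.3 for SDC4. SULF1 led in irradiated HUVEC, at 11.5 CPM per kilobase against 7.91 for SDC4, and control HUVEC had 7.40 for SULF1 and 8.33 for SDC4. In irradiated HAEC SULF1 was at 4.13 CPM per kilobase and SULF2 at 6.98, against 0.106 for SULF1 and 4.45 for SULF2 in control HAEC. With the empty vector GPC1 (48.8) and SDC4 (49.6) were about level per kilobase.

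The genes most like SULF1 over the 17 group means were GASK1B-AS1 (Pearson r = 0.920), GASK1B (0.891), COL8A1, a short-chain collagen (0.832), CD302 (0.788) and PAXBP1-AS1 (0.788), out of 13364 genes compared. Exons of GASK1B-AS1 overlap those of GASK1B on the opposite strand over 18.4% of their length, and those of CD302 overlap another gene on the opposite strand over 58.8%. No source used here says whether counting used strand, so these values are uncertain. Of the 8 genes, SULF2 shares 1.44% of its exon bases with NCOA3 and 3.18% with AL354813.1, and GPC6 shares 7.36% with AL354811.1, all on the opposite strand. For SULF2 they were TNFSF18, a cytokine ligand (0.941), ABCA6, a transporter (0.914), ZDHHC23 (0.872), PLSCR4 (0.871) and ZDHHC14 (0.868). These are descriptions over groups that share library sets and cell types, with no test.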

How the data were processed

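The authors deposited raw read counts per gene for each of the 37 libraries. Tools listed in the submitters' processing notes are STAR 2.4, featureCounts, cutadapt and bcl2fastq, with hg19 as the build and no order or settings, and the use of strand in counting is not given in the sources used here. Per the labels' protocols, total RNA was depleted of ribosomal RNA before library preparation. Of 57773 gene identifiers, 52338 received a symbol (51996 from a gene name table, the rest from GENCODE 29), and PECAM1 among the endothelial markers had no match. Counts were tested with edgeR 4.0.16 in R 4.3.3 (filterByExpr, TMM, robust quasi-likelihood fit of group means within a set of libraries, Benjamini-Hochberg adjustment over all genes tested, threshold 0.05). Each SE was obtained as |log2 fold change| over the root of its F statistic. Other genes were named by a rule of size: per list, comparison and direction, up to 2 called genes with the largest change, among genes whose log2 CPM averaged 1 or more. The 8 genes and the lists were chosen with earlier results of these data known. On simulated counts for irradiated WI-38, 0% of genes changed 2-fold and 19% of those changed 4-fold were recovered, and for HRAS 66% and 100%. The simulation gave every gene of a set the same coefficient of variation and changed 200 genes. Its shares therefore do not measure recovery in the real libraries. Alternatives were DESeq2 1.42.0 (size factors and Wald test), no filter, only the groups compared, all 37 libraries in 1 fit, a replicate block and leaving out each library. Replicate numbers were not taken to pair samples. In HUVEC, the set with 3 numbers, deviations of same-numbered libraries correlated at -0.064 to 0.015. In the sets with 2 shared numbers the highest such correlation was 0.116, between HRAS and empty vector libraries. Promoter windows came from RefSeq on GRCh38.p14.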

Additional observations from a re-analysis of the deposited data

Results flagged for a closer look

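Differences between the responses of 2 models were flagged where the difference itself passed an adjusted p below 0.05 (edgeR's quasi-likelihood test over all genes). For HRAS minus doxorubicin in WI-38 the log2 differences were -5.02 for SULF1, -2.29 for SULF2, 1.72 for HPSE, -0.86 for GPC1, -2.42 for GPC6, 0.69 for SDC1 and -0.56 for SDC4. For late passage in WI-38 minus late passage in IMR-90 they were -1.50 for SULF1, -1.37 for SDC1, 0.90 for SDC2 and -2.62 for SDC4. For radiation in WI-38 minus radiation in IMR-90 they were 2.39 for SULF1, 2.76 for SULF2, -1.72 for GPC1, 2.06 for GPC6, -1.54 for SDC1 and -1.01 for SDC4. SDC4 was higher in every irradiated HAEC library and lower in every irradiated HUVEC library than in their own controls, with responses 0.42 apart on the log2 scale, and that difference was not tested.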

How the results depend on the processing

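All SULF1 calls, all GPC6 calls of the 8 comparisons tested, and the SULF2 calls with doxorubicin, its repeat and radiation in WI-38 kept their direction and call under every alternative run. With only the groups compared, first doxorubicin gave 6 called members, against 3. In 1 fit of all 37 libraries the doxorubicin repeat gave 5, against 2, and the difference of doxorubicin responses 1, as it did with DESeq2's Wald test and without the filter, against 0. The number called over all genes moved more: in the fit of all 37 libraries it was 6449 against 1831 for the doxorubicin repeat, 10812 against 5036 for irradiated WI-38, 9131 against 4234 for late-passage WI-38, 3920 against 11203 for HAEC, 3252 against 10836 for HUVEC, 9109 against 14431 for irradiated IMR-90, 9315 against 14700 for late-passage IMR-90, 295 against 3285 for irradiated against late-passage IMR-90, 4136 against 1627 for the difference of doxorubicin responses and 6846 against 4338 for that of late-passage responses. With only the groups compared it was 12849 against 7911 for first doxorubicin and 3205 against 5036 for irradiated WI-38. The doxorubicin repeat had 3587 by DESeq2's Wald test and 3135 with no filter, and the difference of doxorubicin responses 2952 by the Wald test. Single libraries moved it too: to 4533 to 4771 for first doxorubicin without any of its 4 libraries, 936 for the repeat without repeat library 2 and 611 without repeat control 1, 2536 and 2626 for irradiated WI-38 without control 1 or 2, and for late-passage WI-38 2439 without late-passage library 2 and 1866 and 1922 without proliferating library 1 or 2. It was 1466 and 1341 for irradiated against late-passage IMR-90 without irradiated library 1 or 2, 951 to 1070 for the difference of doxorubicin responses without a library of the first experiment or repeat control 1, and 2799 to 2879 for that of late-passage responses without late-passage IMR-90 library 1 or a proliferating library of either strain. The cause was not tested. Leaving out 1 library gave 4 to 7 called members in irradiated IMR-90 (4 without proliferating library 2), 4 to 6 in late-passage IMR-90, 2 to 5 between these groups (5 without late-passage library 1), 6 to 8 with HRAS, 3 to 5 with first doxorubicin (5 without either empty vector library), 2 to 2 in the repeat, 2 to 3 in irradiated WI-38 and 3 to 6 in late-passage WI-38 (3 without proliferating library 2). For differences of responses it gave 4 to 8 for HRAS minus doxorubicin (4 without doxorubicin library 1 or 2 or doxorubicin control 1), 0 to 1 for doxorubicin (1 without repeat library 2), 2 to 4 for late passage (2 without late-passage IMR-90 library 1) and 6 to 6 for radiation. The replicate block, with numbers not known to pair the samples, gave 8 called members for HRAS minus doxorubicin, against 7. It changed no other count: 7 in HAEC, 4 in HUVEC, 2 in irradiated WI-38. Values that turned sign were all uncalled. GPC6 in HUVEC was 0.01 and became -0.01 with all 37 libraries, 0.00 without the filter, -0.02 with the block and -0.37 to 0.26 with 1 library left out. SULF1 in irradiated against late-passage IMR-90 was 0.00 with all 37 libraries and with the block. HPSE in the late-passage difference was -0.05 and became 0.02 with DESeq2 size factors, the Wald test and no filter. Leaving out 1 library gave these ranges of log2 values. GPC6 was -0.77 to 0.12 in HAEC. HPSE was -0.58 to 0.01 in irradiated IMR-90, -1.46 to 0.94 in irradiated WI-38, -0.69 to 0.44 in the late-passage difference and -1.24 to 1.16 in the radiation difference. In late-passage IMR-90 SDC1 was -0.34 to 0.11 and SDC2 -0.36 to 0.01. In the doxorubicin repeat GPC1 was -0.15 to 0.69, GPC6 -0.38 to 0.33 and SDC1 -0.59 to 0.12. GPC1 was -0.55 to 0.11 in irradiated WI-38 and -0.78 to 0.09 in the late-passage difference. Between irradiated and late-passage IMR-90 GPC1 was -0.16 to 0.06, GPC6 -0.25 to 0.06, SDC2 -0.36 to 0.01 and SULF1 -0.08 to 0.07. GPC6 was 0.00 to 0.66 in the doxorubicin difference. By Spearman's rho 3 of the 5 genes most like SULF1 and 3 of the 5 most like SULF2 were the same. The log2 level of HPSE in endothelial over fibroblast controls was 4.59, 4.99 when scaled to protein-coding counts and 4.41 with TMM over all 37 libraries. The simulated counts had the same coefficient of variation for every gene of a set. In them 98% of 2-fold changes were recovered in irradiated IMR-90 and 0% in irradiated WI-38. Both compare 2 libraries with 2, in a fit of the whole set.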
